A study of Mus musculus with 10 samples.

Results

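Transcripts of sorted Hopx cells and sorted Lgr5 cells from calorie-restricted mice were compared in the mouse intestine. The comparison was chosen by the labels alone: the 2 libraries of Hopx cells under calorie restriction (Hopx CR) were set against the 3 libraries of Lgr5 cells under calorie restriction (Lgr5 CR), 5 of the 10 libraries of the series, over all gene rows. Of 30295 gene rows, 15839 passed the filter on low counts and were tested. The Hopx cells came from Hopx-CreER::LSL-tdTomato mice, in which a Cre recombinase made by Hopx-expressing cells removes a stop sequence, so that a labelled cell and its descendants carry tdTomato. The Lgr5 cells came from Lgr5-EGFP-IRES-CreER mice, in which EGFP is made where the Lgr5 gene is active. All mice were C57Bl/6, and each library came from its own animal. The same sorts from mice with food ad libitum, named Hopx AL (n = 2) and Lgr5 AL (n = 3), served to ask whether a difference between the populations was also seen without restriction. The sources used here do not give animal ages, the time between Cre induction and sorting, or the sort gates. Isolations 1, 2 and 3 held Lgr5 animals and isolations 4 and 5 held Hopx animals, each with 1 AL and 1 CR animal, so the population, the reporter line and the isolation cannot be told apart.

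The intestinal epithelium is renewed from crypts, where Wnt signals keep a pool of dividing stem cells marked by Lgr5 at the base, next to the Paneth cells. A rarer population marked by Hopx, Bmi1 or Tert reporters divides slowly, and is known for replacing the active pool after injury. Both can give rise to absorptive enterocytes and to the secretory lineages, which are the mucus-making goblet cells, the antimicrobial Paneth cells, the hormone-making enteroendocrine cells and the chemosensory tuft cells. In libraries made from sorted pools, fewer cells of a type and less RNA per cell cannot be told apart.

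Depth in the CR libraries ran from 30.2 M to 87.2 M estimated counts (M, 1e6), with no molecular identifiers, so counting precision covers reads rather than molecules. Levels are given as counts per 1e6 counts of a library (CPM) after TMM scaling, in the order of the replicate numbers. The correlation of log2 CPM was 0.980 between the Hopx CR libraries, 0.977 to 0.984 among the Lgr5 CR libraries and 0.972 to 0.981 between the populations, so these ranges overlapped. Mitochondrially encoded transcripts took 4.89% of counts in Lgr5 CR replicate 1 and 1.67% to 2.63% in the other 4 CR libraries. Hopx CR replicate 1 and Lgr5 CR replicate 3 nearly lacked the Y-linked transcript Eif2s3y, at 0.125 and 0.0766 TPM, against 17.3 to 30.5 TPM in the other 3. Among the AL libraries, Lgr5 AL replicate 3 nearly lacked it too, at 0.045 TPM, against 8.91 to 23.4 TPM in the rest. Hopx AL replicate 1, of the same isolation as Hopx CR replicate 1, had 14.5 TPM. With 2 libraries against 3, an exact permutation of the labels for a single value cannot give a two-sided p below 0.1, so the tests rest on the edgeR model over all 10 libraries.

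Few genes passed the test between the populations under restriction. At an adjusted p under 0.05 by edgeR's quasi-likelihood test with Benjamini-Hochberg adjustment, 3 of 15839 genes were called (0.0189%), 1 higher (0.00631%) and 2 lower (0.0126%) in Hopx CR. All 3 carry names of predicted genes or pseudogenes, whose reads can move between near-identical copies, and they are uncertain as single genes. Rps13-ps1, a ribosomal protein pseudogene, stood at 82.7 and 76.1 CPM in Hopx CR and at 1.87, 1.99 and 0.53 CPM in Lgr5 CR (log2 fold change 5.81, SE 0.60, adjusted p = 0.0107). Its level was also high in Hopx AL, at 59.8 and 78.1 CPM, and low in Lgr5 AL, at 0.717 to 2.57 CPM, so it followed the population under both diets. Gm5499 had 0 counts in both Hopx CR libraries and 12.9, 6.14 and 6.50 CPM in Lgr5 CR, at least 357-fold lower against a floor of 3 counts over the Hopx CR group (adjusted p = 0.0032). Gm10698 had 0 counts in both Hopx CR libraries and 10.3, 13.9 and 12.6 CPM in Lgr5 CR, at least 515-fold lower against the same floor (adjusted p = 4.79e-04). Among the libraries with Y-linked transcripts, Hopx CR replicate 2 was the lone Hopx CR library, so that fit cannot decide whether these calls hold. Rps13-ps1 lost its call without Lgr5 CR replicate 1 (adjusted p = 0.0954), Lgr5 CR replicate 2 (0.0766) or Hopx CR replicate 1 (0.0508), and Gm5499 without Hopx CR replicate 1 (0.0508).

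An unadjusted p under 0.05 was reached by 998 genes (6.3%), of which 524 were higher in Hopx CR (3.31%) and 474 lower (2.99%). Both Hopx CR libraries lay above all Lgr5 CR libraries in 1849 genes (11.7%) and below all of them in 1811 (11.4%). DESeq2, run on the same counts, called 68 genes higher (0.429%) and 92 lower (0.581%). The median log2 fold change over all tested genes was 0.00, with 50.2% of genes positive and 49.8% negative. These shares are the background for the gene groups that follow, in which no member passed the edgeR test over all genes unless it is stated. The groups were listed by known cell type or pathway, with earlier results of these data known, and their counts and medians are descriptions.

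**Figure D1:**
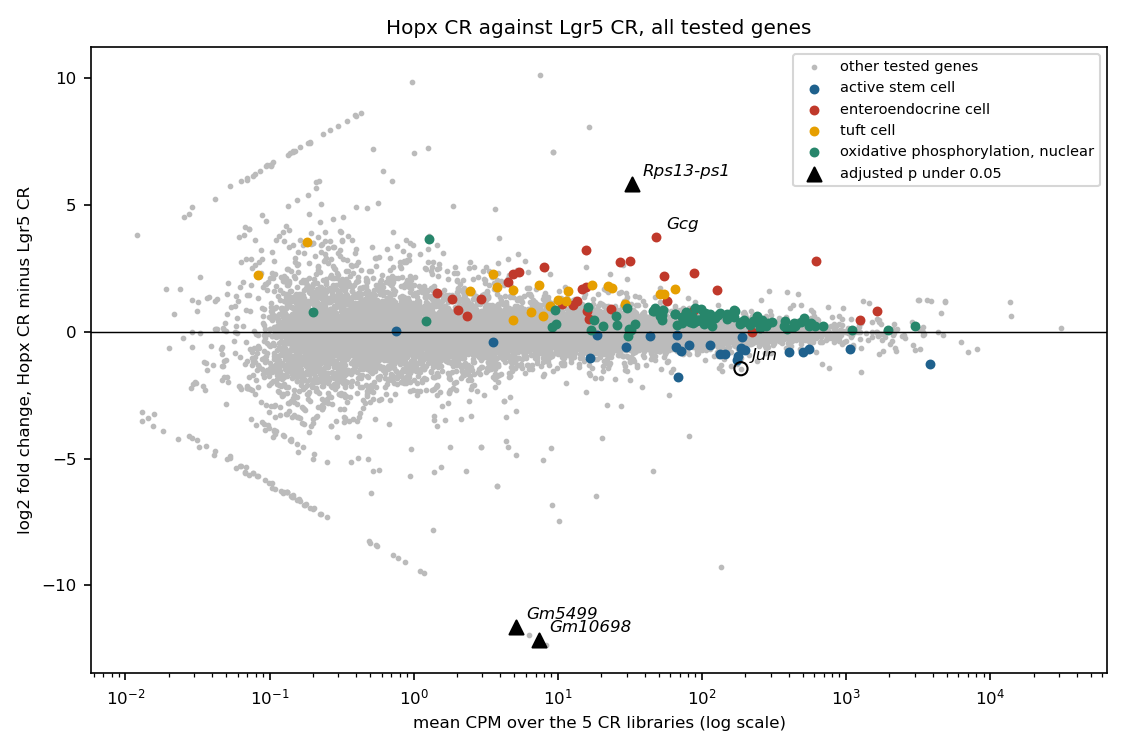
Log2 fold change of Hopx CR minus Lgr5 CR against the mean CPM over the 5 CR libraries (log scale), with 1 point for each of the 15839 tested genes. Coloured points are members of 4 gene lists and triangles are the 3 called genes. Enteroendocrine and tuft cell genes lie mostly above 0, active stem cell genes mostly below it, and the rows of points that fan out at low CPM are genes with 0 counts in a group.

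The genes of the reporters themselves did not separate the populations the way the sort names do. Hopx, a homeodomain protein that lacks DNA-binding activity, stood at 116 and 81.9 CPM in the Hopx CR libraries and at 145, 154 and 152 CPM in Lgr5 CR. Both Hopx CR libraries thus lay below all 3 Lgr5 CR libraries (log2 fold change -0.60, SE 0.18, adjusted p = 0.572). Lgr5, the R-spondin receptor that marks active stem cells, stood at 158 and 69.3 CPM in Hopx CR and at 238, 149 and 270 CPM in Lgr5 CR (-0.94, SE 0.50, adjusted p = 0.852). The ranges overlapped, since Hopx CR replicate 1 was above Lgr5 CR replicate 2. The label Hopx cells is therefore used here for the sorted reporter and not for a higher Hopx level.

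Genes that mark active stem cells had mostly lower values in the Hopx cells. Of 24 tested members of that list, 23 had a negative log2 fold change, 9 had an unadjusted p under 0.05 in that direction, and 14 lay below all Lgr5 CR libraries in both Hopx CR libraries. The list's median was -0.67, with -1.001 without Hopx CR replicate 1 and -0.44 without Hopx CR replicate 2. Olfm4, a secreted glycoprotein of crypt base cells, stood at 2269.6 and 1878 CPM in Hopx CR and at 5442, 4617 and 4904 CPM in Lgr5 CR. The groups did not overlap, and the fold did not pass the test (-1.27, SE 0.35, adjusted p = 0.541). Tnfrsf19, a Wnt target of the TNF receptor family also called Troy, stood at 39.6 and 16.2 CPM against 106, 85.7 and 94.5 CPM (-1.77, SE 0.48, adjusted p = 0.541). DESeq2 called these 2 members of the list lower, Olfm4 and Tnfrsf19. Igfbp4, a binding protein of insulin-like growth factors, had a log2 fold change of -0.86, and Rnf43, a ubiquitin ligase that removes Wnt receptors from the membrane, had -1.10. Ascl2, the transcription factor that maintains Lgr5 cells, overlapped between the groups at 88.3 and 40.1 CPM against 76.5, 97.8 and 102 CPM (-0.52, adjusted p = 0.907). Summed over the list, active stem cell genes reached 5839 and 4566 CPM in Hopx CR and 10550, 9082 and 10620 CPM in Lgr5 CR.

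Wnt targets and feedback genes, a list that shares members with the active stem cell list, had 21 of 28 tested members with negative values, 8 of them at an unadjusted p under 0.05, and a median of -0.36. Sp5, a transcription factor induced directly by Wnt and beta-catenin, stood at 20.2 and 16.7 CPM in Hopx CR and at 49.1, 51.4 and 38.5 CPM in Lgr5 CR. Its groups did not overlap (-1.33, SE 0.26, adjusted p = 0.242), and in AL the same fold was -1.73. Lef1, a DNA-binding partner of beta-catenin, stood at 2.67 and 1.43 CPM against 7.63, 5.54 and 5.80 CPM (-1.62, adjusted p = 0.551). DESeq2 called Sp5, Lef1 and Tnfrsf19 lower.

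Reserve stem cell genes showed no common direction. Of 12 tested members, 5 were positive and 7 negative, with a median of -0.16. That median was -0.46 without Hopx CR replicate 1, 0.021 without Hopx CR replicate 2 and -0.088 without Lgr5 CR replicate 2. Bmi1, a Polycomb protein used as a reserve cell marker, stood at 36.7 and 21.2 CPM in Hopx CR and at 32.3, 18.8 and 27.3 CPM in Lgr5 CR (0.15, adjusted p = 0.992), and its sign turned in several alternative analyses. Tert, the catalytic subunit of telomerase, had a log2 fold change of -0.43, and Lrig1, an inhibitor of ErbB receptors, had -0.70. Cdkn1c, an inhibitor of cyclin-dependent kinases, stood at 22.4 and 14.8 CPM against 5.50, 11.8 and 9.04 CPM, without overlap (1.09, SE 0.37, adjusted p = 0.664). The list of ErbB receptors and ligands also holds Lrig1, Lrig3 and Errfi1. Of its 13 tested members, 12 had negative values, 8 lay below all Lgr5 CR libraries, and the median was -0.46. Erbb3, a receptor that signals with its ErbB partners, was among them at 403 and 391 CPM against 614, 425 and 603 CPM (-0.46, adjusted p = 0.852).

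**Figure D2:**
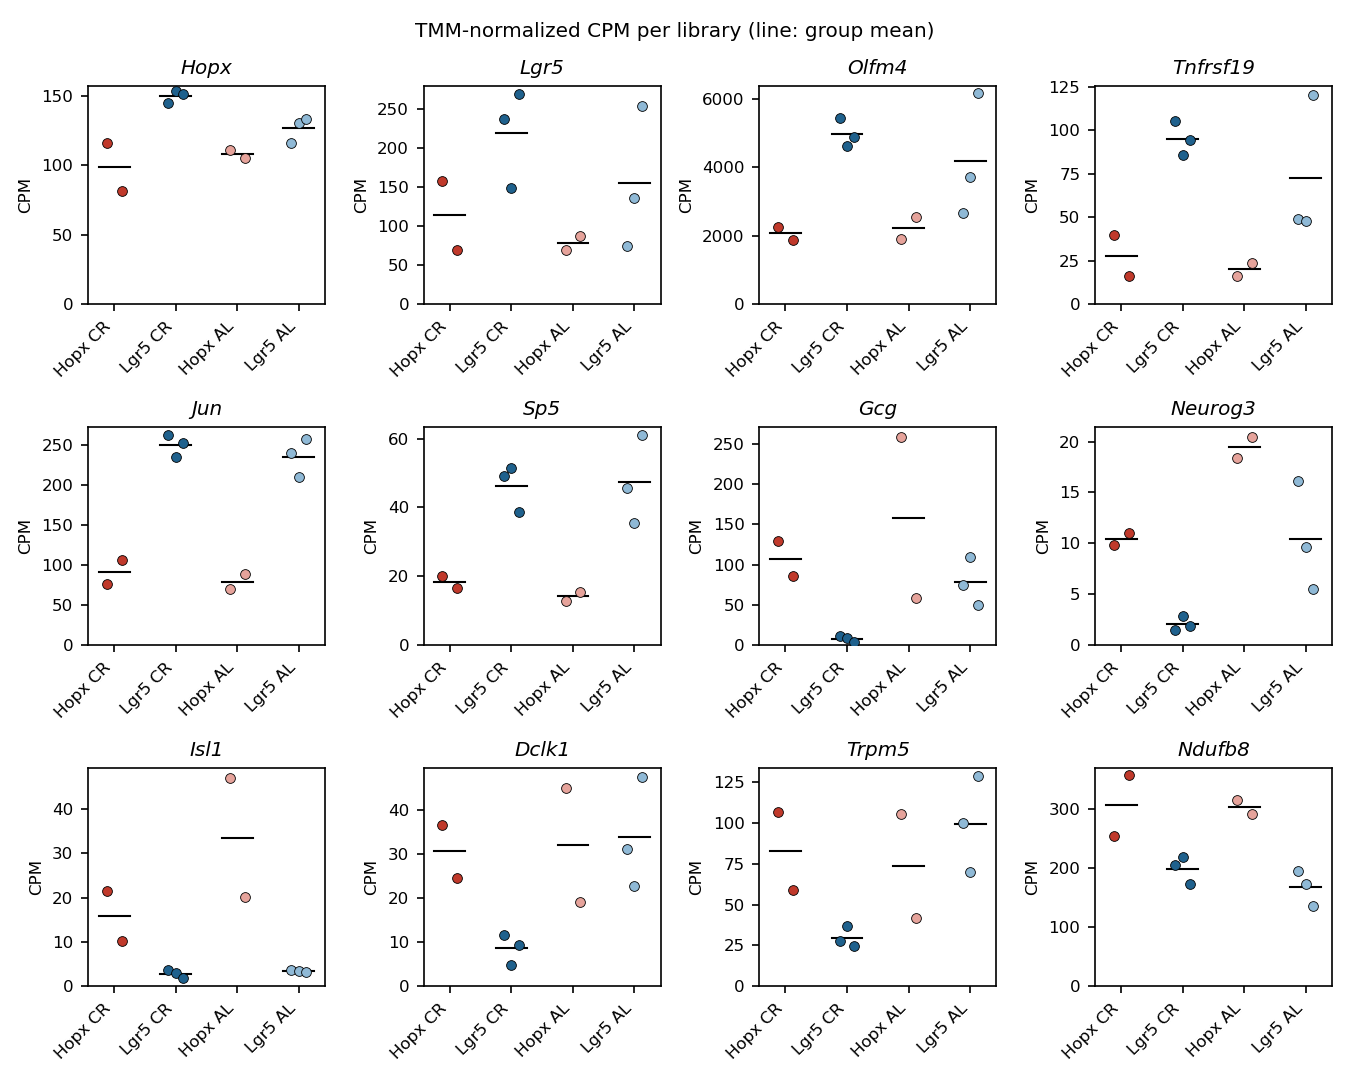
CPM of 12 genes in each library, on linear axes from 0, for Hopx CR, Lgr5 CR, Hopx AL and Lgr5 AL. Points are libraries and lines are group means, and Jun, Sp5 and Olfm4 are below all Lgr5 CR libraries in both Hopx CR libraries, while Gcg, Neurog3, Isl1, Dclk1 and Trpm5 are above all of them.

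Enteroendocrine genes had mostly higher values. Of 31 tested members, 30 had positive values, 15 of them at an unadjusted p under 0.05, and both Hopx CR libraries lay above all Lgr5 CR libraries in 16. The median log2 fold change was 1.30. Neurog3, the transcription factor that starts the enteroendocrine lineage, stood at 9.81 and 11 CPM in Hopx CR and at 1.48, 2.89 and 1.84 CPM in Lgr5 CR (2.34, SE 0.43, adjusted p = 0.202). Isl1, a LIM-homeodomain factor of hormone-producing cells, stood at 21.5 and 10.3 CPM against 3.58, 2.92 and 1.79 CPM (2.53, SE 0.44, adjusted p = 0.202). These factors were without overlap between the populations. Gcg, which encodes proglucagon, the precursor of GLP-1, stood at 129 and 85.7 CPM in Hopx CR and at 11.9, 8.63 and 4.00 CPM in Lgr5 CR (3.73, SE 0.63, adjusted p = 0.172). Scg2, a granin of secretory granules, stood at 76.9 and 53.4 CPM against 2.15, 14.4 and 11.7 CPM (2.79, SE 0.58, adjusted p = 0.331). The hormone genes Gip and Cck, named after their values were seen, reached 1572 and 965 CPM and 200.5 and 138 CPM in Hopx CR. In Lgr5 CR they stood at 40.4 to 271 CPM and at 4.20 to 68.8 CPM. Chga, the granin that marks most enteroendocrine cells, did not follow them, at 2365 and 627 CPM against 309, 1681 and 1274 CPM (0.46, adjusted p = 0.976).

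DESeq2 called 7 enteroendocrine members higher, among them Gcg, Gip, Isl1, Neurog3, Pax6 and Scg2. The list's total was uneven across libraries, at 9167 and 3774 CPM in Hopx CR and 901, 4813 and 3807 CPM in Lgr5 CR, so the sums overlapped. Without Hopx CR replicate 1, 24 of 31 members were positive, and without Lgr5 CR replicate 1 the median was 0.89.

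Tuft cell genes had positive values in all 21 tested members, and in each edgeR fit that left out a library. An unadjusted p under 0.05 was reached by 16 of them, 18 lay above all Lgr5 CR libraries in both Hopx CR libraries, and the median was 1.59. Dclk1, a kinase used as a tuft cell marker, stood at 36.5 and 24.6 CPM in Hopx CR and at 11.7, 4.75 and 9.24 CPM in Lgr5 CR (1.83, SE 0.46, adjusted p = 0.454). Trpm5, the cation channel of taste and tuft cell signalling, stood at 107 and 58.7 CPM against 27.4, 36.7 and 24.6 CPM (1.49, SE 0.40, adjusted p = 0.541). Hpgds, a prostaglandin D synthase, stood at 7.46 and 6.10 CPM against 2.33, 0.996 and 0.880 CPM (2.28, SE 0.50, adjusted p = 0.361). Alox5ap, which serves leukotriene synthesis, had a log2 fold change of 1.85. Pou2f3, the factor that specifies tuft cells and here named after its values were seen, stood at 22.2 and 12.3 CPM against 8.04, 8.13 and 6.08 CPM. The list summed to 725 and 404 CPM in Hopx CR and to 205, 250.2 and 148 CPM in Lgr5 CR. DESeq2 called Dclk1 and Hpgds. The size was smaller on the TPM scale, with a tuft median of 0.95 where the median of all genes was -0.19. Among libraries with Y-linked transcripts the tuft median was 0.87, with Hopx CR replicate 2 as the lone Hopx CR library.

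Goblet cell genes had positive values in 18 of 19 tested members, 7 of them at an unadjusted p under 0.05, with a median of 0.93. Tff3, the trefoil peptide secreted with mucus, stood at 473 and 810 CPM in Hopx CR and at 248, 287 and 114 CPM in Lgr5 CR (1.57, SE 0.49, adjusted p = 0.638). Creb3l1, a transcription factor of secretory cells, stood at 66.7 and 51.3 CPM against 22.4, 25.8 and 27.7 CPM (1.22, adjusted p = 0.559). Klk1, a kallikrein protease, and Tpsg1, a tryptase, had log2 fold changes of 1.22 and 1.496. Muc2, the main gel-forming mucin, overlapped at 255 and 167 CPM against 168, 145 and 225 CPM (0.24, adjusted p = 0.981). The goblet list summed to 8816 and 10280 CPM in Hopx CR and to between 4174 and 6092 CPM in Lgr5 CR, without overlap.

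Paneth cell genes were less uniform, with 15 of 21 tested members positive, 7 at an unadjusted p under 0.05 and a median of 0.50. That median was 0.08 without Hopx CR replicate 1, 0.95 without Hopx CR replicate 2 and 0.79 without Lgr5 CR replicate 3. Spink4, a protease inhibitor of secretory cells, stood at 766 and 746 CPM in Hopx CR and at 248, 313 and 250.3 CPM in Lgr5 CR (1.48, SE 0.39, adjusted p = 0.490), and DESeq2 called it. Clps, a cofactor of pancreatic lipase, stood at 614 and 368 CPM against 135, 178 and 174 CPM (1.60, adjusted p = 0.554). The alpha-defensin Defa23, uncertain as a single gene in its family, had 1.26. Lyz1, the lysozyme and the most abundant of these transcripts, overlapped at 2.39% to 3.89% of counts in Hopx CR and 2.51% to 3.45% in Lgr5 CR (0.17, adjusted p = 0.997). Summed Paneth transcripts were 120200 and 79100 CPM in Hopx CR and 57460, 63920 and 77700 CPM in Lgr5 CR. The share of secretory cells in each sort, and its part in the values of these 4 lists, was not tested.

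Enterocyte genes showed smaller values, with 8 of 33 tested members positive, 25 negative and a median of -0.16, which was -0.086 without Lgr5 CR replicate 1, -0.090 without Hopx CR replicate 1, -0.29 without Lgr5 CR replicate 2 and -0.32 without Hopx CR replicate 2. Ada, adenosine deaminase, stood at 211 and 546 CPM in Hopx CR and at 877, 1160.2 and 1008 CPM in Lgr5 CR (-1.42, SE 0.53, adjusted p = 0.695). Tmprss15, the enteropeptidase of the brush border, stood at 16.7 and 33.1 CPM against 48.0, 43.7 and 56.6 CPM (-0.99, adjusted p = 0.664). Alpi, the intestinal alkaline phosphatase, overlapped at 1294 and 1177 CPM against 1471, 1276 and 1871 CPM (-0.32, adjusted p = 0.969).

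Transcripts of intraepithelial T cells were detected in every CR library. Of 20 tested members, 17 had negative values, none at an unadjusted p under 0.05, with a median of -1.17. The median depended on the Hopx library, at -0.49 without Hopx CR replicate 1 and -2.64 without Hopx CR replicate 2, and it was -0.74 without Lgr5 CR replicate 1. Summed T cell markers were 29.4 and 99.0 CPM in Hopx CR and 194, 76.7 and 134 CPM in Lgr5 CR. Lck, a T cell kinase, stood at 1.68 and 4.85 CPM against 9.42, 7.2 and 9.99 CPM (-1.45, adjusted p = 0.827). Summed endothelial markers were 12.8 to 15.6 CPM in Hopx CR and 18.0 to 22.4 CPM in Lgr5 CR, and summed myeloid markers 67.1 to 80.2 and 56.0 to 73.9 CPM. Their part in the differences was not tested.

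**Figure D3:**
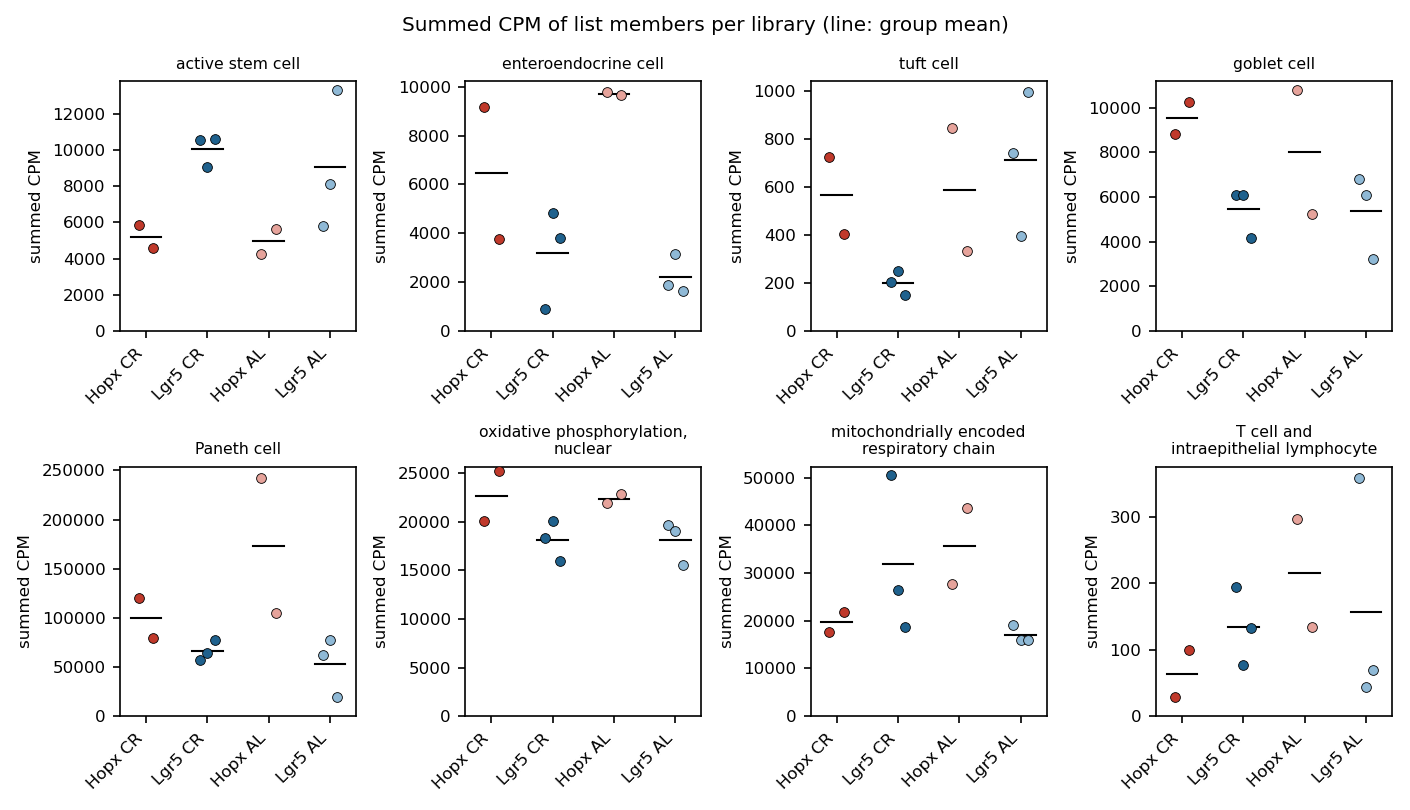
Summed CPM of the members of 8 gene lists in each library, on linear axes from 0, with lines at group means. Active stem cell sums are lower in both Hopx CR libraries than in all 3 Lgr5 CR libraries, tuft, goblet and Paneth sums are higher, and enteroendocrine and T cell sums overlap.

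Among the named genes with lower values in Hopx CR, Afap1l1 and Jun had the smallest p. Jun, the leucine-zipper subunit of the AP-1 transcription factor, stood at 75.9 and 106 CPM in Hopx CR and at 263, 235 and 252 CPM in Lgr5 CR. The groups did not overlap, and the spread within each was small beside the gap (log2 fold change -1.46, SE 0.20, adjusted p = 0.0778). In AL the levels were 70.4 and 88.2 CPM against 239, 209.8 and 257 CPM, again without overlap (-1.57, adjusted p = 0.0581). Jun was called by DESeq2, without the count filter and by limma-voom with isolation as a random effect. Fosl2, an AP-1 partner, stood at 55.1 and 59.1 CPM against 86.3, 91.7 and 101 CPM (-0.70, SE 0.17, adjusted p = 0.398). Across the AP-1 and immediate early list, 20 of 22 tested members were negative, 10 lay below all Lgr5 CR libraries, 2 had an unadjusted p under 0.05 and the median was -0.35. Nr4a2, an orphan nuclear receptor, went the other way at 13.4 and 8.46 CPM against 4.69, 3.82 and 7.32 CPM (1.05, adjusted p = 0.657).

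Upstream sequences of 3 of these genes show the letters that their regulators are known to bind: Jun for its AP-1 type element, Sp5 for a TCF/LEF core and Gcg for an E-box core of the kind used by basic helix-loop-helix factors such as Neurog3. Each is the 250 bases before the gene's start in RefSeq (GRCm38.p6), 5′ to 3′ on the gene's strand, with matches in capitals. The motifs searched on both strands were TGACATCA for Jun, CTTTGAT for Sp5 and CAGATG for Gcg, found in 2.93%, 3.21% and 14.4% of 32851 windows of the same length.
Jun, chr4:95052223-95052472, minus strand: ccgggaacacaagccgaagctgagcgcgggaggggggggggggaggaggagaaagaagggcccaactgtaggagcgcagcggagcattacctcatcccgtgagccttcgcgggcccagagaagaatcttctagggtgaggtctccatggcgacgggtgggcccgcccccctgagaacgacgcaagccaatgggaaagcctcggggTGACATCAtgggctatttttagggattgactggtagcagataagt
Sp5, chr2:70474673-70474922, plus strand: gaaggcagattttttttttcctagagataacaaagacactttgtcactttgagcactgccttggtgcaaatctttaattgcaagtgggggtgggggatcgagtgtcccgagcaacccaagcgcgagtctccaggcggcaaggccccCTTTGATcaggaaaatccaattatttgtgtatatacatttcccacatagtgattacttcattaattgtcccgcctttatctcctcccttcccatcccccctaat
Gcg, chr2:62483654-62483903, minus strand: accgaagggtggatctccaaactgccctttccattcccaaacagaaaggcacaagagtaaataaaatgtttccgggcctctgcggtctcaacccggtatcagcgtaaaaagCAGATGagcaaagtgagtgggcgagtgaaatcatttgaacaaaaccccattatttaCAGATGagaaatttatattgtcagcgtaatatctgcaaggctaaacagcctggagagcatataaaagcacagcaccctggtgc
The Jun window held 1 match that begins 45 bases before the start, the Sp5 window 1 match 104 bases before it and the Gcg window 2 matches, 139 and 83 bases before it. A match describes these letters and not binding in these cells.

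The other named genes with low p-values in the same direction had varied roles, and none passed the edgeR test. Afap1l1, an actin-associated adaptor, stood at 29.8 and 25 CPM in Hopx CR and at 79.6, 82.1 and 87 CPM in Lgr5 CR (-1.60, SE 0.21, adjusted p = 0.0778). Timmdc1, a factor for assembly of respiratory complex I, stood at 4.71 and 4.18 CPM against 23.0, 31.0 and 14.9 CPM (-2.37, adjusted p = 0.0795). Adora1, an adenosine receptor, stood at 11.1 and 16.8 CPM against 45.9, 44.0 and 29.6 CPM (-1.51, adjusted p = 0.202). Slc14a1, a urea transporter, stood at 14 and 10.7 CPM against 70.2, 62.2 and 34.2 CPM (-2.17, adjusted p = 0.361). The rest of that group were Ccdc3, Tbc1d23, Lcp1, Hebp1, Cdc42ep1 and Syne4, with log2 fold changes from -2.71 to -0.87. By the rule that chose them, none of these genes overlapped between the groups.

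In the upward direction, Fah, the last enzyme of tyrosine breakdown, stood at 8.90 and 7.95 CPM in Hopx CR and at 1.89, 1.86 and 2.07 CPM in Lgr5 CR (2.12, SE 0.31, adjusted p = 0.0795). Fabp5, a fatty acid binding protein, stood at 58.7 and 56.3 CPM against 6.33, 11.3 and 10.2 CPM (2.64, SE 0.44, adjusted p = 0.172). Scgn, a calcium-binding protein of endocrine cells, stood at 36.7 and 25.5 CPM against 4.77, 5.21 and 6.00 CPM (2.54, adjusted p = 0.202). Rpl21, a ribosomal protein with many processed copies and so uncertain as a single gene, stood at 114 and 156 CPM against 54.3, 76.9 and 50.1 CPM (1.16, adjusted p = 0.202). Fah and Scgn were low in all 3 Lgr5 CR libraries, with little spread among them. Sphkap and Pkib also belonged to this set, with log2 fold changes of 2.79 and 2.24.

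Nuclear genes of oxidative phosphorylation had small positive values in nearly all members. Of 87 tested members, 86 had positive values, 24 at an unadjusted p under 0.05, 31 lay above all Lgr5 CR libraries and the median was 0.43. Ndufb8, a subunit of complex I, stood at 255 and 358 CPM in Hopx CR and at 205, 218 and 173 CPM in Lgr5 CR (0.62, SE 0.21, adjusted p = 0.664). Atp5l, a subunit of ATP synthase, stood at 99.0 and 171 CPM against 79.8, 87.1 and 53.1 CPM (0.88, SE 0.29, adjusted p = 0.645). Both genes kept their groups apart, by gaps smaller than the distance between the Hopx CR libraries. The median was 0.20 without Hopx CR replicate 2 and 0.66 without Hopx CR replicate 1. Fitted to log2(TPM + 1) values it was 0.13, where the median of all genes was -0.19.

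Mitochondrially encoded subunits of the same complexes had values of the other sign, all 12 tested members being negative with a median of -0.46 and none at an unadjusted p under 0.05. mt-Co2, a subunit of cytochrome c oxidase, stood at 1381 and 1767 CPM in Hopx CR and at 4727, 1753 and 1515 CPM in Lgr5 CR (-0.76, adjusted p = 0.874). Lgr5 CR replicate 1 alone was high there, and without it the list's median was 0.09. The median was -0.20 without Hopx CR replicate 1, -0.84 without Hopx CR replicate 2 and -0.73 without Lgr5 CR replicate 3. Cytosolic ribosomal protein genes were positive in 73 of 80 tested members, with a median of 0.29 that was -0.02 on the TPM scale. It was 0.04 without Hopx CR replicate 2, 0.18 without Lgr5 CR replicate 3, 0.46 without Lgr5 CR replicate 2 and 0.54 without Hopx CR replicate 1.

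The list of fatty acid oxidation enzymes and PPAR targets was positive in 34 of 39 tested members, with a median of 0.28, and 21 lay above all Lgr5 CR libraries. Pdk4, a kinase that shuts off pyruvate oxidation and is induced in fasting, stood at 43.3 and 30.5 CPM in Hopx CR and at 13.3, 11.7 and 11.9 CPM in Lgr5 CR (1.58, SE 0.28, adjusted p = 0.202). Angptl4, a secreted inhibitor of lipoprotein lipase, stood at 38.9 and 36.1 CPM against 13.5, 7.40 and 11.4 CPM (1.80, SE 0.42, adjusted p = 0.391). DESeq2 called both of these genes. Ppara, the nuclear receptor for fatty acids, stood at 24.5 and 25.4 CPM against 18.8, 10.9 and 11.2 CPM (0.87, adjusted p = 0.732).

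Cholesterol synthesis genes were positive in 25 of 27 tested members (median 0.29, and 0.13 without Hopx CR replicate 2). Hmgcs1, an early enzyme of the pathway, stood at 112 and 151 CPM in Hopx CR and at 94.2, 87 and 92.9 CPM in Lgr5 CR, without overlap (0.53, SE 0.17, adjusted p = 0.645). The unfolded protein response and chaperone genes were positive in 20 of 24 (median 0.24), among them Hsp90b1, an endoplasmic reticulum chaperone, at 433 and 520.2 CPM against 346, 292 and 311 CPM. On the TPM scale the medians of the fatty acid, cholesterol and unfolded protein response lists were -0.02, -0.00 and -0.06, still above the -0.19 of all genes there.

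Genes of dividing cells had medians near 0. S phase genes had a median of 0.16, with 31 of 40 members positive and 3 above all Lgr5 CR libraries. G2 and M phase genes had a median of 0.12, with 26 of 40 positive, 11 above all Lgr5 CR libraries and 0 below them. The S phase median was -0.030 without Hopx CR replicate 2, 0.0037 without Lgr5 CR replicate 1, 0.31 without Hopx CR replicate 1 and 0.35 without Lgr5 CR replicate 2. The G2 and M phase median was -0.0031 without Lgr5 CR replicate 2, 0.014 without Hopx CR replicate 1, 0.043 without Lgr5 CR replicate 1, 0.21 without Hopx CR replicate 2 and 0.23 without Lgr5 CR replicate 3. On the TPM scale the medians were -0.10 and -0.17, both above the -0.19 of all genes on that scale. Mki67, a protein of dividing cells, stood at 59.6 and 94.7 CPM in Hopx CR and at 52.8, 26 and 24 CPM in Lgr5 CR, without overlap (1.17, SE 0.81, adjusted p = 0.902). Ccne2, a cyclin of the G1 to S transition, had a log2 fold change of 1.08 and Cdk1, the mitotic kinase, had 0.40. The mTORC1 components and regulators, genes of the nutrient-sensing kinase complex that the series' title names, had 19 of 42 tested members positive and a median of -0.02, or -0.073 to 0.048 when a CR library was left out. Mtor, the kinase, stood at 64.4 and 55.9 CPM against 59.7, 50.7 and 72.0 CPM (-0.02, SE 0.21, adjusted p = 0.999). Its groups overlapped in full, and these values are mRNA levels and not kinase activity.

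MHC class II genes, which present antigens to helper T cells, had 10 of 11 negative values and a median of -0.42, 6 below all Lgr5 CR libraries. Ciita, the factor that switches these genes on, stood at 33.9 and 24.7 CPM in Hopx CR and at 45.6, 49.3 and 72.1 CPM in Lgr5 CR (-0.93, SE 0.29, adjusted p = 0.638). Laminin and hemidesmosome genes had 11 of 16 negative values and a median of -0.36, which was -0.17 without Lgr5 CR replicate 1, -0.18 without Hopx CR replicate 2 and -0.20 without Hopx CR replicate 1. Lamb3, a chain of the basement membrane protein laminin-332, stood at 78.8 and 74.7 CPM against 176, 129 and 144 CPM (-0.96, SE 0.25, adjusted p = 0.471), and Lamb2 at 9.08 and 6.10 CPM against 21.3, 15.3 and 17.9 CPM (-1.26, adjusted p = 0.444). DESeq2 called both lower, and Col17a1, a hemidesmosome collagen at 1.52 and 1.92 CPM against 0 to 0.0996 CPM, higher. In the remaining lists the medians ran from -0.47 for myeloid cells to 0.49 for genes of the distal small intestine. The first was -0.16 without Hopx CR replicate 1, -0.23 without Lgr5 CR replicate 3 and -0.27 without Lgr5 CR replicate 1, and the second was 0.15 without Hopx CR replicate 2.

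**Figure D4:**
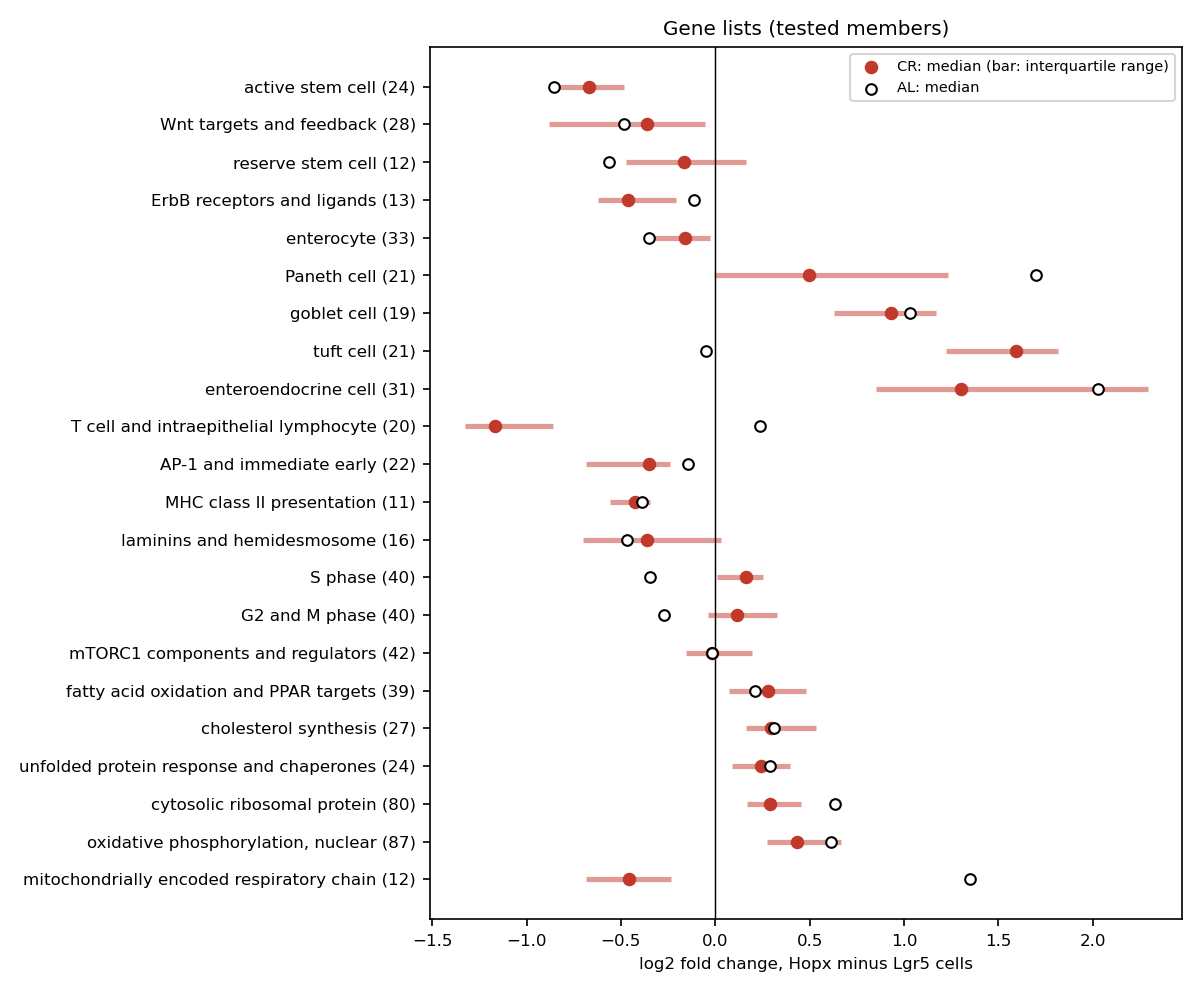
Median log2 fold change of Hopx minus Lgr5 cells for the gene lists shown, with the number of tested members in parentheses. Filled points and bars are the median and interquartile range under CR, open points the median under AL, and the tuft cell, T cell and mitochondrially encoded lists have open and filled points far apart.

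Whether the population difference itself changed with diet was asked by the difference between the CR and AL comparisons. They share no library but do share the isolations, each with 1 AL and 1 CR animal. The test had no term for isolation, so its p-values leave this pairing out. Only Gm10698 passed this test (1 of 15839 genes, 0.00631%), and 747 genes had an unadjusted p under 0.05 (4.72%), 448 with a higher value under CR (2.83%) and 299 with a lower one (1.89%). In AL itself 3 genes were called between the populations (0.0189%), Gm5499, Rps13-ps1 and Gm9765. DESeq2 called 35 genes in the test of the difference (0.221%).

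Tuft cell genes had different medians under the 2 diets. In AL their median log2 fold change was -0.05 with 9 of 21 members positive, against 1.59 with 21 of 21 under CR. The difference had an unadjusted p under 0.05 in 10 members, all of them with the higher value under CR. Dclk1 stood at 44.9 and 19.2 CPM in Hopx AL and at 31.1, 22.8 and 47.4 CPM in Lgr5 AL, so the AL groups overlapped while the CR groups did not (difference between diets 1.91, SE 0.66, unadjusted p = 0.0164). Trpm5 stood at 106 and 41.7 CPM in Hopx AL and at 99.7, 69.8 and 129 CPM in Lgr5 AL (difference 1.92, unadjusted p = 0.00835). The levels in Hopx cells overlapped between the diets, and the low group was Lgr5 CR. Enteroendocrine genes were positive under both diets, with a median of 2.03 in AL and 30 of 31 members positive, 29 of them without overlap, where 52.4% of all genes were positive and 18.8% were above without overlap. Gcg was an exception, at 258 and 57.9 CPM in Hopx AL against 75, 109.8 and 50.2 CPM in Lgr5 AL (1.01, difference between diets 2.71, unadjusted p = 0.0107). Nts, which encodes the peptide neurotensin, differed in the opposite sense, with 21.0 and 89.6 against 0.130, 11.5 and 13.1 CPM under CR and 216 and 92.1 against 0 to 0.208 CPM in AL. The active stem cell, goblet cell and nuclear oxidative phosphorylation lists kept the sign of their medians in AL. Those were -0.86, 1.03 and 0.61 in AL, against -0.67, 0.93 and 0.43 under CR.

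Mitochondrially encoded genes went the other way, from a median of 1.35 in AL to -0.46 under CR, with an unadjusted p under 0.05 for the difference in 9 of 12 members, all lower under CR. For mt-Co2 the AL levels were 2519 and 3962 CPM in Hopx cells and 1119, 1046 and 1449.7 CPM in Lgr5 cells. Lgr5 CR replicate 1, whose share of these transcripts was high, entered the CR side of this comparison. On the AL side, Hopx AL replicate 2 was high, at 4.45% of counts. Hopx AL replicate 1 was at 2.39% and the Lgr5 AL libraries at 1.72% to 1.94%. Paneth cell genes had a median of 1.70 in AL, with 21 of 21 members positive, against 0.50 under CR. The AL libraries spread widely, with summed Paneth transcripts at 242600 and 104500 CPM in Hopx AL and 62120, 77710 and 19570 CPM in Lgr5 AL. How far single AL libraries shaped that median was not tested. The difference between the diets had an unadjusted p under 0.05 in 5 Paneth members, all lower under CR. The S phase and G2 and M phase medians were -0.34 and -0.27 in AL, against 0.16 and 0.12 under CR. There 4 and 5 of 40 members had an unadjusted p under 0.05 for the difference, all higher under CR.

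The named genes with the smallest p in the test of the difference were Capn15, Tmprss15, Rbm45, Rptor and Iba57, and none of them passed after adjustment. Rptor, the subunit that gives mTORC1 its substrates, stood at 54.7 and 49.0 CPM in Hopx CR and at 46.3, 39.3 and 49.5 CPM in Lgr5 CR. In AL it stood at 24.7 and 24.9 CPM in Hopx cells and at 41.5, 55.4 and 51.0 CPM in Lgr5 cells. The populations thus overlapped under CR (0.20, adjusted p = 0.930) and did not in AL (-0.99), with a difference of 1.20 (SE 0.25, unadjusted p = 8.38e-04). Tmprss15 had lower values in Hopx cells under CR, as given above, and higher ones in AL, at 22.1 and 13.9 CPM against 7.39, 6.2 and 4.71 CPM (difference -2.55, unadjusted p = 3e-04). Rbm45, an RNA-binding protein, stood at 20.7 and 24.1 CPM in Hopx AL and between 1.76 and 4.45 CPM in the other 3 groups.

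**Figure D5:**
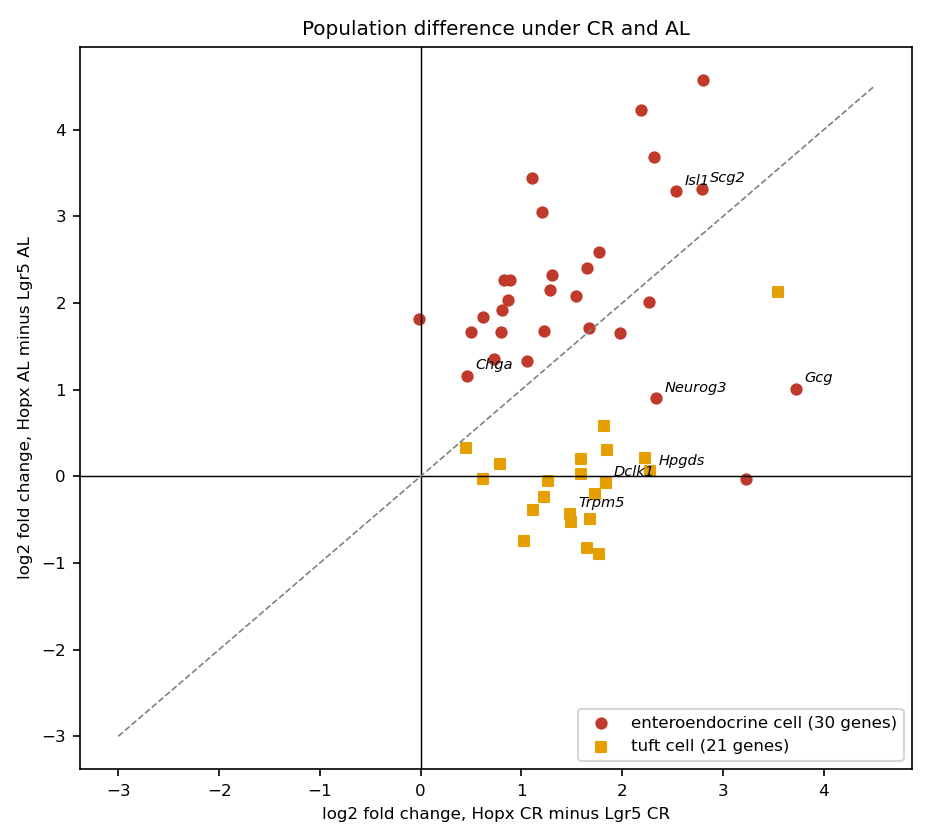
Log2 fold change of Hopx minus Lgr5 cells under AL (vertical) against that under CR (horizontal) for enteroendocrine (circles, 30 genes) and tuft cell genes (squares, 21 genes), with the line of equal values dashed. Nts, at 10.40 under AL, lies outside the axes and is not drawn. Tuft cell genes lie to the right of 0 and near 0 on the vertical axis, and most enteroendocrine genes are positive on both.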

How the data were processed

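RNA of sorted cells was measured in 10 libraries, made per the labels' protocols with SMART-Seq v4 and Nextera XT and sequenced with Illumina chemistry, without molecular identifiers or strand marking. The authors deposited estimated counts per gene symbol and a TPM table (transcript abundance scaled to 1e6 per library) of the same rows. Per the submitters' processing notes, kallisto and edgeR were used (versions not given), and the listed build is GRCh38, which is human although the symbols are mouse. The sources used here give neither the annotation nor the summing to genes. Gene positions are therefore given only for the RefSeq promoter windows.

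Estimated counts were rounded, filtered with edgeR's filterByExpr (minimum count 10) and TMM-scaled. The quasi-likelihood model of edgeR 4.0.16 (R 4.3.3) had a mean per group and took in all 10 libraries, since groups of 2 and 3 libraries give little spread of their own. The contrasts were Hopx CR against Lgr5 CR, the same in AL, and their difference, two-sided, with Benjamini-Hochberg adjustment over 15839 genes and a threshold of 0.05. The biological coefficient of variation was 0.389. SE values were derived from each log2 fold change and its F statistic. Simulated data had the depths of this comparison and, unlike real genes, a single spread for all genes. There the test called 4% of genes changed by 1 on the log2 scale, 56% of those changed by 2 and 100% of those changed by 3. It also called 7 unchanged genes. These shares do not give the power in the real data, where Gcg at a log2 fold change of 3.73 was not called. Each library is a separate animal, per the series' design text.

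Alternatives were DESeq2 1.42.0, other scalings and filters, the CR libraries alone, limma 3.58.1 on log2(TPM + 1), limma-voom with isolation as a random effect, a replicate block, and leaving out each library. The fit on libraries with Y-linked transcripts was added after the data were seen. It left Hopx CR replicate 2 as the lone Hopx CR library, so calls lost there cannot be told apart from the smaller group. The members and lists were chosen with earlier results of these data known. Up to 12 genes per direction were named, with the smallest p, at least 5 CPM in the higher group, no overlap between the groups, and no predicted, pseudogene, mitochondrial or date-like symbol. The rule also took, from each list described, the 4 members whose p was smallest, fixed stem cell and lineage markers, and the 5 smallest p in the difference between diets. Another 27 rows with date-like names were tested without being named, and 53 tested rows hold the same counts as another row. A few genes that the rule took are not reported here.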

Additional observations from a re-analysis of the deposited data

Results flagged for a closer look

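The population difference of Gm10698, a predicted gene, differed between the diets by a test of the difference itself. The fitted difference between the CR and AL log2 fold changes was -11.54 (adjusted p = 0.001862, edgeR's quasi-likelihood test), and this size depends on the prior count because both Hopx CR libraries had 0 counts. In AL the gene stood at 6.53 and 6.93 CPM in Hopx cells and at 11.4, 12.5 and 7.11 CPM in Lgr5 cells. With isolation as a random effect the difference did not pass (adjusted p = 0.225). Reads of a predicted gene can move between near-identical copies, and their part in these values was not tested.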

How the results depend on the processing

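Genes higher in Hopx CR numbered 68 by DESeq2, 12 without a count filter, 8 in the CR libraries alone, 2 by limma on log2(TPM + 1), 0 with the replicate block (897 at an unadjusted p under 0.05) and 0 among libraries with Y-linked transcripts (822), where DESeq2 was not run. Leaving out a library gave 0 to 3. Genes lower numbered 92, 12, 4 and 0 by DESeq2, without the filter, in the CR libraries alone and among Y-linked libraries, and 1 to 4 when a library was left out. For the difference between diets the counts were 35 by DESeq2, 3 without the filter, 3 on TPM, 0 with isolation as a random effect, 0 among Y-linked libraries and 1 to 2 when a library was left out. The active stem cell median was -0.96 on TPM and -1.001 to -0.44 over left-out libraries. The goblet median was 0.58 on TPM, 0.66 with the replicate block, 0.70 among Y-linked libraries and 0.81 to 1.00 over left-out libraries. The tuft median was 0.95 on TPM, 0.87 among Y-linked libraries and 1.09 to 1.90 over left-out libraries. The enteroendocrine median ran from 0.89 to 1.67 and the oxidative phosphorylation median from 0.20 to 0.66 over left-out libraries, the latter being 0.13 on TPM. Signs turned for Bmi1 (-0.16 on TPM, -0.29 among Y-linked libraries, -0.31 to 0.49 over left-out libraries), Chga (-0.66 among Y-linked libraries, -0.80 to 1.12), Muc2 (-0.073 on TPM, -0.10 to 0.51), Lyz1 (-0.17 on TPM, -0.23 with the block, -0.099 among Y-linked libraries, -0.23 to 0.48), Mtor (0.050 with the block, 0.0051 among Y-linked libraries, -0.13 to 0.12) and Rptor (-0.083 on TPM). The median of all genes was -0.19 on TPM, and the TPM values of these 4 genes lay above it. The cause of the other turns was not tested. Replicate numbers are separate isolations in the 2 populations, so they do not pair the samples. The deviation correlations of -0.10 and 0.16 for numbers 1 and 2 cannot decide this, since the deviations of 2 Hopx CR libraries mirror each other. The block also ended the call of Rps13-ps1 (adjusted p = 0.0714). Isolation as a random effect, with a correlation of 0.158, ended that of Gm5499 (adjusted p = 0.104). Simulated data gave few calls for 2-fold changes at this size.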

Other observations

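Genes outside the groups above also differed in level without passing the edgeR test. Per1, a repressor of the circadian clock, stood at 18.6 and 8.25 CPM in Hopx CR and at 4.44, 3.19 and 6.39 CPM in Lgr5 CR (log2 fold change 1.52, SE 0.53, adjusted p = 0.664). In AL its level was 6.08 and 4.27 CPM in Hopx cells and 6.39, 9.4 and 20.7 CPM in Lgr5 cells (unadjusted p = 0.00522 for the difference between diets). The clock list as a whole had a median of -0.15 with 7 of 21 members positive. That median was -0.75 without Hopx CR replicate 1, -0.41 without Lgr5 CR replicate 2, 0.14 without Lgr5 CR replicate 1 and 0.31 without Hopx CR replicate 2. Cyr61, a matricellular protein and YAP target, stood at 1.97 and 2.89 CPM in Hopx CR and at 5.39, 7.37 and 6.18 CPM in Lgr5 CR (-1.38, SE 0.37, adjusted p = 0.528), and DESeq2 called it lower. Across the regeneration and YAP list 15 of 26 members were negative, with a median of -0.25, which was -0.11 without Lgr5 CR replicate 1 or replicate 2 and -0.14 without Hopx CR replicate 1. Of the Notch pathway, 10 of 20 members were positive. Notch2, a receptor, stood at 13.7 and 12.5 CPM against 28.9, 14 and 26.7 CPM, and Hes1, a Notch target that represses secretory fate, at 55.8 and 68.8 CPM against 91.8, 98.1 and 88.7 CPM, both without overlap (-0.82 and -0.58, adjusted p = 0.759 and 0.836).

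Osr2, a transcription factor on the list of distal small intestine genes, stood at 31.9 and 46.3 CPM in Hopx CR and at 87.3, 64.2 and 51.2 CPM in Lgr5 CR (-0.79, SE 0.29, adjusted p = 0.695), while 6 of 7 members of that list were positive (median 0.49, and 0.15 without Hopx CR replicate 2). The proximal list had 4 of 10 members positive (median -0.10, and -0.025 to 0.049 without Lgr5 CR replicate 1 or 3 or without either Hopx CR library), and its sums overlapped between the populations, whereas the distal sums did not. The distal list shares Tac1, Nts and Pyy with the enteroendocrine list. Tac1 stood at 169 and 65.1 CPM in Hopx CR and at 11.5, 118 and 71.3 CPM in Lgr5 CR. Nts stood at 21.0 and 89.6 CPM against 0.130, 11.5 and 13.1 CPM. The part of these shared genes in the distal sums was not tested.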
